A study of Homo sapiens with 9 samples.

Results

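Knockdown of sorbitol dehydrogenase (SORD) was compared with control cells in A549, an established human lung adenocarcinoma line, over all genes that passed an expression filter. The comparison used the 3 libraries titled shSORD and the 3 titled plko, 6 of the 9 libraries of the series, chosen by their labels alone. The other 3 libraries carry a short hairpin RNA (shRNA) against AKR1B1 and serve below only as a second reference. An shRNA is a small hairpin transcript that directs the degradation of a matching messenger RNA. Neither the hairpin sequences nor the number of hairpins per target are given in the labels, so each target is represented by 1 shRNA label. The control group is called plko in its titles and scrambled in its treatment label, which leaves unsettled whether its cells carried a non-targeting hairpin or a vector without a hairpin. All groups were grown in medium with 5% serum, and polyadenylated RNA was sequenced with a strand-marking kit. Whether a group's libraries came from separate transductions or from dishes of the same transduced cells is not told by the labels. The p-values below therefore reflect only the scatter among these libraries, and that scatter may be technical.

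The polyol pathway is a side route of glucose metabolism. Its first enzyme, aldose reductase, encoded by AKR1B1, makes sorbitol from glucose, and SORD then oxidises the sorbitol to fructose with NAD+ as the electron acceptor. Sorbitol crosses membranes poorly, and in kidney cells it is one of the organic osmolytes that balance high external salt. The series title places this pathway between glucose metabolism and the aggressiveness of cancer cells, and the comparison asks what the transcriptome looks like when the sorbitol-oxidising step is lowered.

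SORD, the targeted gene, stood at 44.1, 43 and 41.7 CPM (the deposited count over the scaled library size in units of 1e+06 counts) in the control libraries and at 8.68, 9.0 and 8.18 CPM in the shSORD libraries. The groups did not overlap, and the shSORD mean was 20.1% of the control mean (log2 fold change -2.32, standard error (SE) 0.07, adjusted p = 3.65e-12). Here and below, adjusted p-values come from edgeR's quasi-likelihood test with Benjamini-Hochberg adjustment over all 16916 genes tested, n = 3 libraries per group. A gene is said to have risen or fallen, or to be called, where that value was under 0.05. In the shAKR1B1 libraries SORD lay at 30.4, 30.2 and 31.0 CPM, between the other groups. The fall in SORD transcript is thus present in each shSORD library, and the 3 libraries differed little among themselves in it.

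Of the 16916 genes tested, 27.5% rose and 29% fell with SORD knockdown, a total of 56.5% called in either direction. The shSORD and control libraries did not overlap in 60.1% of all genes tested. Calls with a fitted change of at least 2-fold were less balanced: 8.02% of genes rose and 3.1% fell by that much. Since so many genes were called, each count of list members below is to be read against these shares. The lists were drawn up with earlier results of these data known, so their counts are descriptions and not independent evidence. Library totals ran from 37073786 to 40248882 counts. Mitochondrially encoded genes took 6.46% to 7.55% of the counts in control libraries and 7.72% to 8.17% in shSORD libraries. All 8 epithelial and A549 markers passed the filter. Of 10 leukocyte markers 3 passed the filter, and their sum was 11.1 to 12.3 CPM in control and 9.38 to 11.6 CPM in shSORD libraries. CD14 fell (log2 -1.38), ITGAM rose (1.30) and LYZ, with at most 11 counts, rose (2.34), while CD3E and MS4A1 were at 0 in all 6 libraries and PTPRC had at most 1 count. Of 7 endothelial markers ESAM alone passed, with 69 to 115 counts, and rose by 0.45; CLDN5 was at 0 and CDH5 had at most 4 counts. The summed endothelial level was 1.81 to 2.40 CPM in control and 2.66 to 3.13 CPM in shSORD libraries.

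**Figure D1:**
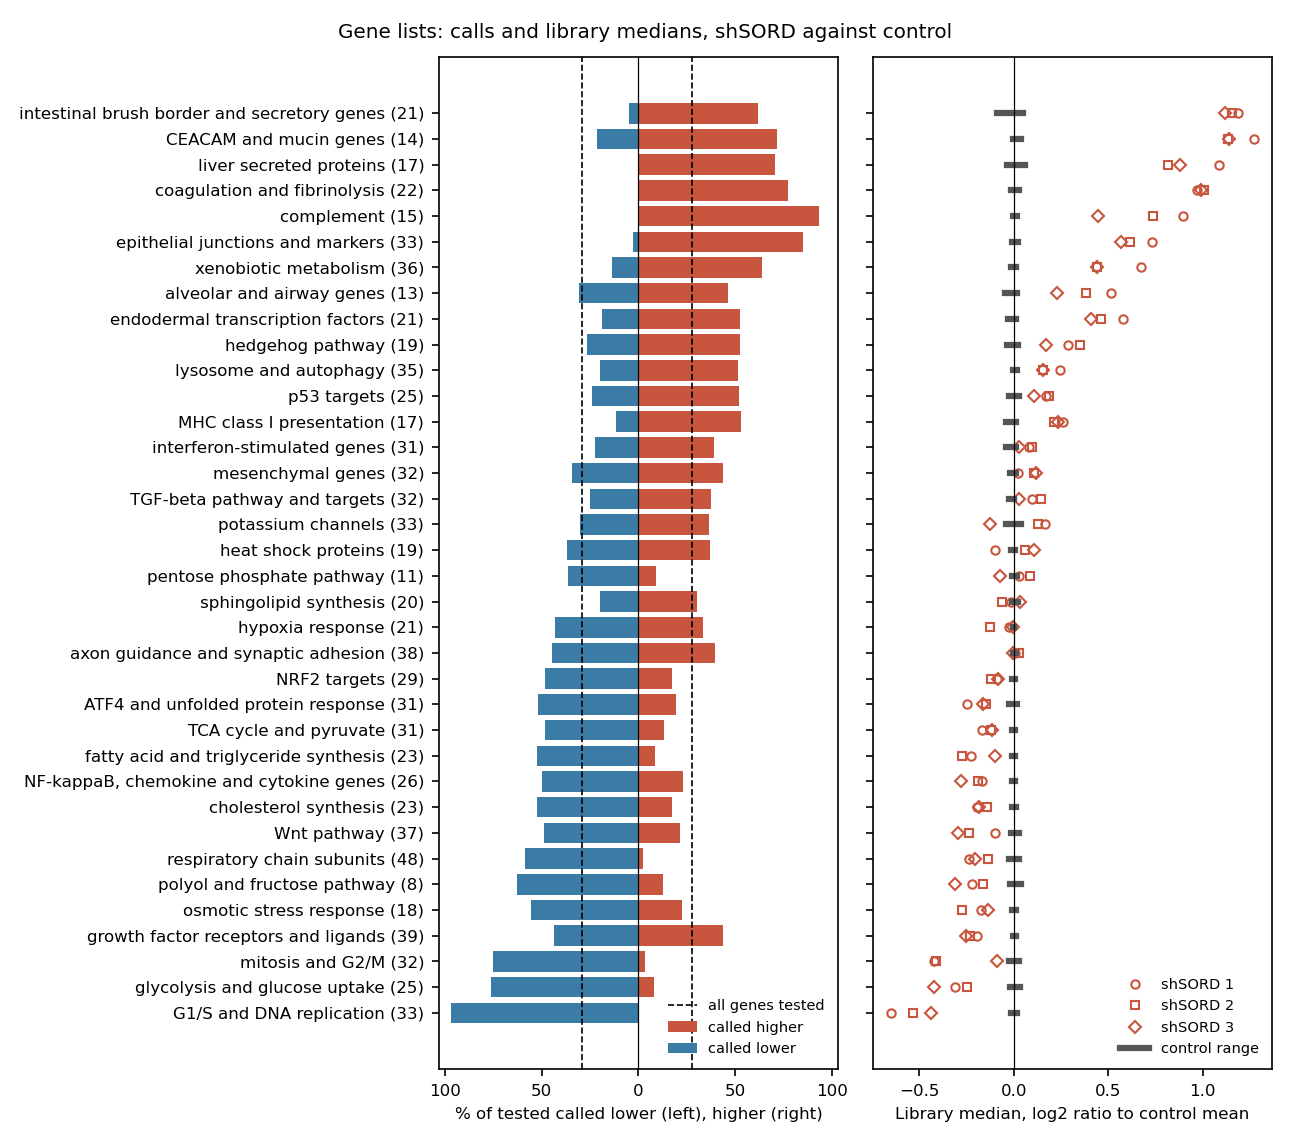
Left, the share of tested members of 36 gene lists called lower (blue, to the left) or higher (red, to the right) in shSORD than in control, with the shares over all genes tested as dashed lines (27.5% higher, 29% lower); the number of tested members stands in brackets. Right, the median log2 ratio of members to the control mean in each shSORD library, with the range of the 3 control libraries as a bar; G1/S genes lie lowest and intestinal and CEACAM and mucin genes highest.

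Of 8 tested members of the polyol and fructose pathway, SORD included, 1 rose and 5 fell, with a median log2 fold change of -0.22 against -0.002 over all genes tested. AKR1B1, the enzyme before SORD, read 1456, 1395 and 1397 CPM in control and 945, 1109 and 1135 CPM in shSORD libraries, a fall by 0.41 on the log2 scale (SE 0.07, adjusted p = 1.31e-04). AKR1B10, a related aldo-keto reductase that acts on retinal and other aldehydes, fell by 0.18 (adjusted p = 1.98e-03). Ketohexokinase (KHK), which phosphorylates fructose, was at 23.8, 21.5 and 24.0 CPM in control and 19.0, 21.5 and 17.1 CPM in shSORD libraries. KHK was called (adjusted p = 0.0152), but its groups overlap, and the call was lost on leaving out control 1 (adjusted p = 0.0546), control 3 (0.0866), shSORD 1 (0.0655) or shSORD 3 (0.0724). GLYCTK, the glycerate kinase near the end of fructose breakdown, was the member that rose, from 6.88, 6.52 and 6.67 CPM to 15.8, 17.2 and 12.5 CPM (log2 1.18, SE 0.11, adjusted p = 3.26e-07). The pseudogene SORD2P read 0.88, 1.01 and 0.97 CPM in control and 0.23, 0.20 and 0.28 CPM in shSORD libraries (log2 -2.01, adjusted p = 6.84e-06), a fall close in size to that of SORD. Reads of SORD and SORD2P can be confused, so the pseudogene's value is uncertain. The fructose transporter SLC2A5 and the gluconeogenic enzyme FBP1 did not pass the filter, with at most 7 counts in any library.

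Endodermal transcription factors rose in part. Of 21 tested members 11 rose and 4 fell, with a median log2 fold change of 0.34. HNF4A, the nuclear receptor that governs much of the hepatocyte and enterocyte programme, went from 35.1, 33.7 and 35.1 CPM to 88.0, 89.7 and 82.0 CPM (log2 1.32, SE 0.06, adjusted p = 1.72e-10). The lowest shSORD library was well above the highest control library. HNF4G, the paralogue of HNF4A in the gut, rose by 1.78 on the log2 scale, and NR1H4, the bile acid receptor FXR, by 1.63. FOXA2, a pioneer factor of the endoderm, instead fell, from 51.2, 49.4 and 53.3 CPM to 44, 42.5 and 39.4 CPM (log2 -0.29, adjusted p = 1.61e-03). NR5A2, the nuclear receptor LRH-1, fell further, from 55.3, 55.2 and 54.8 CPM to 33.5, 31.6 and 33.6 CPM (log2 -0.74, adjusted p = 1.01e-07). In bulk libraries such as these, a larger share of cells with a gene on and more RNA of it per cell cannot be told apart.

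The promoters of genes were searched for a short form of the sequence that HNF4 proteins are known to recognise. RefSeq promoters on GRCh38.p14, from 250 bases before to 50 after each gene's start, were scanned on both strands for CAAAGTCCA. These letters were chosen after the values were seen, and a match is only a description of the sequence. They occurred in 135 of 35116 promoters (0.384%). Of the 58 tested genes with a match 31 rose and 12 fell (53.4% higher, median log2 fold change 0.32). Among all 11764 tested genes with a listed promoter the share that rose was 26.9%, with a median of -0.03. Sequences are printed for 3 list members picked because they rose. They had the largest called rises among members with at least 50 counts and a match wholly before the start. The following 250 bases before the start of these 3 members show where the letters lie, in capitals (30, 179 and 51 bases before the start):
MYO1A (chr12:57050130-57050379, strand -): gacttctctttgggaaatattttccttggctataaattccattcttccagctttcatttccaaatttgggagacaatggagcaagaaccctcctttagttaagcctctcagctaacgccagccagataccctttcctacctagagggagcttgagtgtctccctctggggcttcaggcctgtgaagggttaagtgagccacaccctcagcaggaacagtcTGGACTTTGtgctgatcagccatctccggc
AHSG (chr3:186612810-186613059, strand +): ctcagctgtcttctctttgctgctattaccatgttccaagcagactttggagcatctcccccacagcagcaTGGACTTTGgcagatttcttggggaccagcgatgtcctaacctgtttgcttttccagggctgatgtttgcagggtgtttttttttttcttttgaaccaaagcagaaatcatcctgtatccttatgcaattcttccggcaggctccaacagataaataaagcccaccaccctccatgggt
MUC13 (chr3:124934752-124935001, strand -): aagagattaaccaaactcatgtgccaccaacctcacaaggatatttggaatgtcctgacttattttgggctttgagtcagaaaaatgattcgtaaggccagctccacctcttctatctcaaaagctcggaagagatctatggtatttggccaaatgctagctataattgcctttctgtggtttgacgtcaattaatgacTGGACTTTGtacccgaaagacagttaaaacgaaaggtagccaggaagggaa
A match also lay in promoters of genes that did not rise: WNT3, with the letters after its start, fell by 0.27. TGFBR1, with the letters before its start, was not called (log2 0.13, adjusted p = 0.26), and HMGCS1 rose only by 0.23.

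Among coagulation and fibrinolysis genes 17 of 22 tested members rose and 0 fell (median log2 0.97), and 5 were not called. FGB, the beta chain of fibrinogen, read 29.7, 29.8 and 29.2 CPM in control and 269.4, 219.8 and 217.8 CPM in shSORD libraries (log2 3.00, SE 0.10, adjusted p = 1.02e-11). FGA, the alpha chain, went from 33.4, 35.5 and 36.1 CPM to 168.5, 139.8 and 134.0 CPM (log2 2.07). Coagulation factor V (F5) went from 8.37, 8.70 and 8.81 CPM to 63.6, 53.2 and 52.4 CPM (log2 2.71, SE 0.09, adjusted p = 8.8e-12). In each of these genes shSORD 1 was the highest library, and no shSORD library came near the controls. F13B, the carrier subunit of factor XIII, was barely present in control libraries (5, 7 and 15 counts) and rose by 2.71 on the log2 scale (adjusted p = 1.99e-06).

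Of 17 tested genes in the list of liver-secreted proteins 12 rose and 0 fell (median 1.02), while 14 of the 31 listed did not pass the filter. AHSG, the plasma glycoprotein fetuin-A, had 8, 9 and 12 counts in control libraries and 2.46, 1.76 and 1.98 CPM in shSORD libraries, against 0.22, 0.24 and 0.31 CPM (log2 2.99, SE 0.23). Vitronectin (VTN), a plasma and matrix adhesion protein, went from 12, 13.3 and 13.1 CPM to 86.9, 85.3 and 68.3 CPM (log2 2.65). TM4SF4, a tetraspanin-like membrane protein of liver and gut, went from 40.5, 39.3 and 38.3 CPM to 258.4, 249.4 and 250.8 CPM (log2 2.68, SE 0.05, adjusted p = 1.42e-13). The 3 shSORD libraries agree closely in TM4SF4. Albumin (ALB), the main plasma protein of hepatocytes, was not called (log2 1.55, adjusted p = 0.12) except without shSORD 2 (adjusted p = 0.0415), and TTR and AFP did not pass the filter. Of 15 tested complement genes 14 rose and 0 fell (median 0.74). C5, the precursor of the anaphylatoxin C5a, read 43.8, 43.7 and 44.4 CPM in control and 155.3, 116.4 and 140.1 CPM in shSORD libraries (log2 1.64, SE 0.09). CFI, the protease that inactivates C3b, rose by 2.43, and C4BPA, a cofactor of CFI, by 1.97. C3 itself, the central complement protein, rose only by 0.36 (adjusted p = 9.67e-04). The complement list had the widest spread of library medians among the 36 lists, with median log2 ratios to control of 0.89, 0.74 and 0.45 in shSORD 1, 2 and 3.

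Intestinal brush border and secretory genes had the highest list median, 1.26, with 13 of 21 tested members risen and 1 fallen. Villin (VIL1), which bundles the actin of microvilli, went from 3.15, 2.97 and 2.65 CPM to 24.9, 23.0 and 21.5 CPM (log2 2.99, SE 0.10, adjusted p = 1.58e-11). MYO1A, the brush border myosin, went from 1.66, 1.75 and 1.45 CPM to 14.5, 13.6 and 11.8 CPM (log2 3.04). The intestinal cadherin CDH17 went from 5.99, 7.16 and 6.64 CPM to 68.3, 55.6 and 53 CPM (log2 3.16). In these 3 genes every shSORD library was above every control library. Of the 21 tested members 7 were not called. CDX2, the homeobox factor that specifies intestine, was not called and was low in both groups (0.50 and 0.36 CPM on average). Of 40 listed members 19 did not pass the filter, each with at most 12 counts in any library. 

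Among CEACAM and mucin genes 10 of 14 tested members rose and 3 fell (median 1.20). CEACAM1, a cell adhesion molecule with an inhibitory cytoplasmic tail, went from 0.94, 1.43 and 1.71 CPM to 11.2, 7.56 and 7.88 CPM (log2 2.70, SE 0.19, adjusted p = 3.46e-08). MUC13, a membrane-bound mucin of the gut surface, went from 5.16, 5.86 and 4.71 CPM to 28.5, 23.8 and 25.5 CPM (log2 2.31). The gel-forming mucins went in opposite directions. MUC5AC rose from 170.2, 174.6 and 172.8 CPM to 306.3, 243.8 and 204.3 CPM (log2 0.54, SE 0.10, adjusted p = 2.89e-04). MUC5B fell from 285.3, 267.9 and 276.6 CPM to 105.8, 76.4 and 59.9 CPM (log2 -1.78, SE 0.14, adjusted p = 5.94e-08). MUC5AC and MUC5B are neighbouring paralogues with repeats, and CEACAM genes are near copies of each other, so reads may be split between them.

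**Figure D2:**
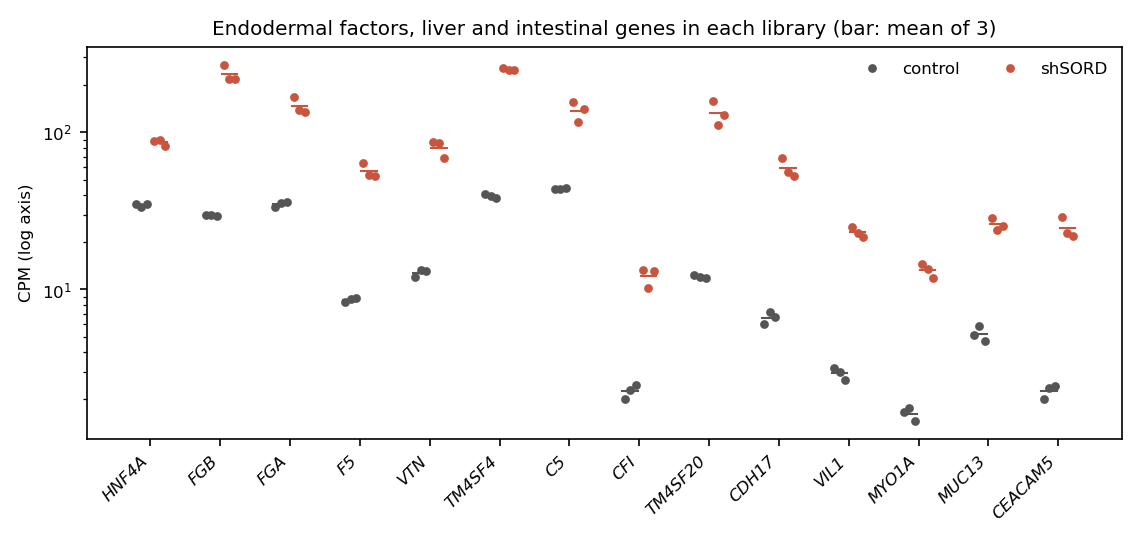
CPM (log axis) of 14 endodermal factor, liver and intestinal genes in each control (grey) and shSORD (red) library, with the mean of 3 as a bar. Only genes that rose are shown, and FOXA2 and NR5A2, which fell, are not among them. For each gene shown all shSORD libraries lie above all control libraries, and HNF4A moves from about 34.6 to 86.5 CPM on average. Over all genes tested the groups did not overlap in 60.1%, in either direction.

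Epithelial junction genes and markers also rose as a group, 28 of 33 tested with 1 fallen (median 0.64). EPCAM, an epithelial surface adhesion protein, went from 3.12, 3.02 and 3.03 CPM to 16.6, 14.5 and 15.9 CPM (log2 2.35, SE 0.10). Cingulin (CGN), which ties tight junctions to the cytoskeleton, went from 7.98, 9.44 and 9.31 CPM to 36.3, 38.1 and 33.7 CPM (log2 2.01). The keratin KRT7 was the member that fell (log2 -0.21, adjusted p = 0.019). Its call was lost in 7 of 15 alternatives, among them leaving out shSORD 1 (adjusted p = 0.164). Lung lineage genes were more mixed in direction. Of 13 tested alveolar and airway genes 6 rose and 4 fell, with a median log2 fold change of 0.42. NKX2-1 and SFTPB did not pass the filter. ABCA3, the lamellar body lipid transporter, rose by 0.26 and the aspartic protease NAPSA by 0.83.

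Among genes with at least 100 CPM in either group, some of the largest rises lay outside those lists. COL12A1, a fibril-associated collagen, went from 22.6, 24.4 and 22.2 CPM to 159.1, 156.7 and 152.1 CPM (log2 2.76, SE 0.06, adjusted p = 6.15e-13). COL4A4, a chain of basement membrane collagen, went from 21.9, 21.9 and 20.5 CPM to 117.0, 107.7 and 107.5 CPM (log2 2.37). NTS, the precursor of the gut peptide neurotensin, went from 71.8, 72.6 and 71.1 CPM to 380.0, 289.1 and 348.0 CPM (log2 2.24, SE 0.09). Each of these genes was separated by several fold in every library, but they were picked for the size of their rise, which favours such separation. They reached 100 CPM only in shSORD libraries. HGD, an enzyme of tyrosine breakdown, rose by 2.32, SLC7A7, a subunit of a cationic amino acid exchanger, by 2.37, and the adaptor gene DOK4 by 2.36. In a separate ranking by size of protein-coding rises with at least 50 counts, without the limit of 100 CPM, ranks 11 to 25 held DEFB1, an epithelial antimicrobial peptide, which went from 3.31, 3.90 and 4.05 CPM to 34.7, 33.3 and 31.5 CPM (log2 3.14), and TRIM31, a ubiquitin ligase of the gut (log2 3.08).

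The largest falls at this level of expression began with SUSD2, a membrane protein with a sushi domain, which went from 261.5, 250 and 256.5 CPM to 60.2, 64.1 and 48.2 CPM (log2 -2.15, SE 0.08, adjusted p = 5.16e-11). Spermine oxidase (SMOX) went from 225.2, 206.5 and 211.0 CPM to 73.5, 77.8 and 60.9 CPM (log2 -1.60). The calcium-binding protein gene TESC fell by 1.32. In the same ranking of falls without that limit, DPYSL3, a cytoskeletal protein of growth cones, went from 39.8, 39.4 and 37.7 CPM to 4.38, 5.14 and 5.67 CPM (log2 -2.94, SE 0.09, adjusted p = 4.39e-12). The neural adhesion gene CHL1 fell by 2.94, the endodermal and vascular factor SOX7 by 3.04, and SPARC, a collagen-binding matrix protein, by 2.61.

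Growth factor genes moved in both directions, 17 up and 17 down of 39 tested. Receptors led the rises. ERBB3, the kinase-impaired partner of the EGF receptor family, went from 11.7, 13.8 and 12.6 CPM to 121.0, 99.6 and 87.7 CPM (log2 3.01, SE 0.12, adjusted p = 6.97e-11). ERBB2, its preferred partner, went from 86.2, 81.6 and 83.3 CPM to 185.6, 186.0 and 156.8 CPM (log2 1.07). KLB, the co-receptor for endocrine FGFs, rose by 3.13 and the receptor FGFR3 by 1.48. Ligands of the EGF receptor led the falls. Epiregulin (EREG) went from 70.6, 73.9 and 71.8 CPM to 18.5, 18.9 and 23.0 CPM (log2 -1.84, SE 0.09, adjusted p = 5.4e-10). Amphiregulin (AREG) fell by 1.98 and TGFA by 1.63. EGF itself rose by 1.51, so the ligands did not all move in one direction.

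Of 37 tested Wnt pathway genes 8 rose and 18 fell (median -0.20, and -0.11 without shSORD 3). DKK1, a secreted Wnt antagonist, went from 414.9, 392.2 and 399.3 CPM to 186.6, 151.8 and 161.5 CPM (log2 -1.27, SE 0.07, adjusted p = 1.45e-09). AXIN2 and NKD1, feedback inhibitors that Wnt signalling itself induces, fell by 0.61 and 1.88. The ligand WNT5A fell by 2.68 and the receptor LGR6 by 2.58, while the receptor FZD8 rose by 1.01. Of 19 tested hedgehog genes 10 rose and 5 fell. SHH, a ligand of the pathway, had 41, 25 and 30 counts in control libraries and went from 1.13, 0.66 and 0.76 CPM to 5.18, 6.29 and 4.92 CPM (log2 2.68, SE 0.17). The receptor PTCH1 rose by 0.88 and the transcription factor GLI3 fell by 2.07. HHIP, which binds hedgehog ligands, had 95, 105 and 97 counts in control libraries and 3, 4 and 3 counts in shSORD libraries. GLI1 was called higher by 0.22 (adjusted p = 0.0365), but its groups overlap, and the call was lost on leaving out control 2, control 3, shSORD 1 or shSORD 2 (adjusted p 0.146, 0.0732, 0.0769 and 0.124).

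Genes of neural contact and excitability were likewise mixed. Of 38 axon guidance and synaptic adhesion genes 15 rose and 17 fell, and of 33 potassium channel genes 12 rose and 10 fell. The teneurin TENM2 fell from 13.3, 13.3 and 12 CPM to 0.83, 0.63 and 0.60 CPM, and the ephrin EFNB2 fell by 2.71 on the log2 scale. SEMA3B, a secreted semaphorin, rose from 23.0, 21.7 and 21.1 CPM to 77.8, 81.5 and 62.7 CPM (log2 1.75). The inward rectifier KCNJ16 rose by 2.70, whereas KCNMA1, the large-conductance calcium-activated channel, fell by 1.38 and the channel subunit gene KCNF1 by 2.14.

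Glycolysis genes were mostly lower: of 25 tested members 19 fell and 2 rose (median -0.37). Aldolase A (ALDOA) went from 1808, 1694 and 1693 CPM to 1117, 1246 and 1100 CPM (log2 -0.59, SE 0.06, adjusted p = 8.17e-07). LDHA, which turns pyruvate into lactate, went from 2425, 2562 and 2470 CPM to 1530, 1622 and 1858 CPM (log2 -0.57). PDK1, the kinase that holds back pyruvate dehydrogenase, fell by 0.66, and PFKFB3, which makes the activator of phosphofructokinase, by 0.39. Glucose transporters did not follow. SLC2A3, a high-affinity glucose transporter, rose from 70.0, 69.3 and 67.3 CPM to 141.4, 148.2 and 159.8 CPM (log2 1.121, SE 0.06, adjusted p = 9.02e-10). SLC2A1, the main basal transporter, was at 241.8, 230.7 and 234.0 CPM and 240.5, 275.2 and 252.4 CPM, and was not called (log2 0.12, adjusted p = 0.109). It passed the threshold in 4 of 15 alternatives, one of them leaving out shSORD 1 (adjusted p = 0.0414).

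Of 11 tested pentose phosphate genes 1 rose and 4 fell, and TKT and PGD were not called. Of 23 genes of fatty acid and triglyceride synthesis 12 fell and 2 rose (median -0.16). Fatty acid synthase (FASN) went from 497.9, 472.3 and 468.5 CPM to 235.8, 288.9 and 234.4 CPM (log2 -0.92, SE 0.08, adjusted p = 1.58e-07). ACLY, which supplies its acetyl-CoA, fell by 0.54 and SREBF1, a transcription factor for these genes, by 0.57. Of 23 cholesterol genes 12 fell and 4 rose. Of 20 sphingolipid genes 6 rose and 4 fell, with DEGS2, a dihydroceramide hydroxylase of gut and skin, at the upper end (log2 3.54).

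Nuclear genes for respiratory chain subunits fell in 28 of 48 cases and rose in 1 (median -0.21). The largest fall of a well-expressed subunit was in ATP5MC1, of the ATP synthase c ring, from 188.9, 176.6 and 179.0 CPM to 94.3, 110.3 and 105.1 CPM (log2 -0.81, SE 0.07, adjusted p = 2.3e-07). Cytochrome c1 (CYC1) went from 264.5, 243.4 and 236.5 CPM to 162.7, 183.6 and 155.3 CPM (log2 -0.57). The complex I subunit NDUFS1 fell by 0.29 and the complex II subunit SDHA by 0.23. These are falls of modest size spread over many subunits. Of 31 genes of the TCA cycle and pyruvate use 15 fell and 4 rose. IDH1, the cytosolic isocitrate dehydrogenase, rose by 0.30, and DLAT, of the pyruvate dehydrogenase complex, fell by 0.53. The 4 rises became 7 without shSORD 2.

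SORD handles an osmolyte, and genes of the osmotic stress response were looked at for that reason. Of 18 tested members 4 rose and 10 fell (median -0.23, and -0.15 without shSORD 2). NFAT5, the tonicity-responsive transcription factor, read 67.2, 64.9 and 63.9 CPM in control and 78.9, 51.7 and 63.6 CPM in shSORD libraries, and was not called (log2 -0.01, SE 0.11, adjusted p = 0.921). The members of the list did not move together, and which of them are NFAT5 targets was not marked. AKR1B1, also a member, fell as described above. The taurine transporter SLC6A6 fell from 375.2, 380.6 and 382.6 CPM to 243.0, 243.0 and 223.2 CPM (log2 -0.68, SE 0.05, adjusted p = 3.97e-08). ISYNA1, which makes inositol, fell by 0.87, the Na-K-Cl cotransporter SLC12A2 by 0.91 and the glycerol and water channel AQP3 by 1.22. The kinase SGK1 rose from 22.1, 24.0 and 21.9 CPM to 49.0, 49.1 and 55.5 CPM (log2 1.18, SE 0.07, adjusted p = 4.74e-09). The inducible HSP70 genes HSPA1A and HSPA1B both rose by 0.79, and reads of these near copies cannot be assigned with certainty. Of 19 heat shock genes in all 7 rose and 7 fell; the abundant chaperone HSP90AA1 fell by 0.37.

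Redox genes driven by NRF2 fell more often than they rose, 14 against 5 of 29. ALDH3A1, an aldehyde dehydrogenase, went from 2027, 1927 and 1922 CPM to 950.3, 991.6 and 787.8 CPM (log2 -1.11, SE 0.07, adjusted p = 1.04e-08). GCLC, the catalytic subunit of glutathione synthesis, fell by 0.56, and NQO1, a standard NRF2 target, was not called (log2 -0.07). In the other direction GPX2, the gastrointestinal glutathione peroxidase, went from 259.8, 238.3 and 232.9 CPM to 772.4, 707.0 and 638.5 CPM (log2 1.53, SE 0.07). The haem-degrading enzyme HMOX1 went from 173.3, 167.5 and 169.6 CPM to 248.4, 304.6 and 277.4 CPM (log2 0.70). The 5 rises became 9 without shSORD 3. Of 36 xenobiotic metabolism genes 23 rose and 5 fell (median 0.58), led by ADH6 (log2 2.73) and CYP3A5 (1.73), both liver enzymes, and by the efflux pump ABCB1 (1.64). The carboxylesterase CES1 fell by 2.34.

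Genes of G1/S and DNA replication fell nearly throughout. Of 33 tested members 32 fell and 0 rose (median -0.53). MCM6, a subunit of the replicative helicase, went from 221.8, 243.3 and 231.5 CPM to 106.0, 117.1 and 129.0 CPM (log2 -0.98, SE 0.07, adjusted p = 1.96e-08). MCM10 fell by 0.98, GINS1, also of the helicase, by 0.87, and CDC6, which loads it, by 0.80. PCNA, the sliding clamp, was the exception, at 453.4, 455.7 and 435.3 CPM against 424.2, 435.9 and 431.6 CPM (log2 -0.06, adjusted p = 0.302). Of 32 genes of mitosis and G2/M 24 fell and 1 rose (median -0.29). UBE2C, the ubiquitin-conjugating enzyme of the anaphase-promoting complex, went from 135.9, 134.7 and 138.8 CPM to 53.6, 66.2 and 59.9 CPM (log2 -1.19, SE 0.07, adjusted p = 3.49e-09). Cyclin B1 (CCNB1) fell by 0.67 and the proliferation marker MKI67 by 0.28. Library medians of the mitosis list were uneven, at -0.42, -0.41 and -0.09 in shSORD 1, 2 and 3.

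Of 25 p53 targets 13 rose and 6 fell (median 0.23). CDKN1A, the cell cycle inhibitor p21, went from 85.1, 76.5 and 79.8 CPM to 100.8, 116.9 and 103.5 CPM (log2 0.41, SE 0.06, adjusted p = 7.29e-05). The pro-apoptotic gene BBC3 rose by 0.85 and the death receptor gene FAS by 0.60. MDM2, the p53 ubiquitin ligase, was not called (log2 -0.07), and GDF15, a stress cytokine, fell by 0.77. In the shAKR1B1 libraries CDKN1A averaged 46.1 CPM, below the control, and 20 of the 25 targets were higher in shSORD than in shAKR1B1 libraries. Over all genes tested, 15.1% were higher and 15.5% lower in shSORD than in shAKR1B1 libraries. ATF4 and unfolded protein response genes fell in 16 of 31 cases and rose in 6. PSAT1, of serine synthesis, fell from 214.4, 204.8 and 208.1 CPM to 91.4, 104.4 and 127.3 CPM (log2 -0.96), and MTHFD2, of mitochondrial folate metabolism, fell by 0.81. ATF3 rose by 1.11 and DDIT3 by 0.63, both stress-induced transcription factors, and HERPUD1, of endoplasmic reticulum protein degradation, by 0.61. Hypoxia genes were split, 7 up and 9 down of 21: NDRG1 rose by 1.16, and EGLN3, an oxygen-sensing prolyl hydroxylase, fell by 1.33.

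Immune genes were also divided. MHC class I presentation genes rose in 9 of 17 cases and fell in 2 (median 0.23). HLA-B went from 18.1, 17.5 and 18.6 CPM to 29.8, 32.1 and 27.8 CPM (log2 0.73, SE 0.09, adjusted p = 5.53e-06), with the caution that HLA genes are polymorphic near copies. B2M, the light chain, rose by 0.28, and the peptide transporter subunits TAP1 and TAP2 changed by 0.35 and -0.65. Of 31 interferon-stimulated genes 12 rose and 7 fell, with ISG15 not called and STAT2 risen by 0.87. Of 26 genes of NF-kappaB, chemokines and cytokines 6 rose and 13 fell. CXCL1, a neutrophil attractant, went from 52.9, 51.7 and 51.8 CPM to 15.1, 15.0 and 12.5 CPM (log2 -1.88, SE 0.07, adjusted p = 6.6e-11). CXCL8 fell by 1.06 and CXCL5 by 0.85. LCN2, an iron-sequestering secreted protein, rose from 12.3, 12.2 and 12.2 CPM to 42.9, 32.6 and 26 CPM (log2 1.47).

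Lysosome and autophagy genes rose in 18 of 35 cases and fell in 7 (median 0.23). GABARAPL1, a member of the ATG8 family on autophagosomes, went from 27.8, 30.1 and 30.1 CPM to 104.8, 101.1 and 101.5 CPM (log2 1.80, SE 0.06, adjusted p = 3.08e-11). The kinase ULK1, which starts autophagy, rose by 0.78 and the phosphoinositide effector WIPI1 by 0.94. SQSTM1, an autophagy receptor that is itself degraded, fell by 0.25. CTSC, the lysosomal dipeptidyl peptidase that activates granule proteases, fell from 106.6, 106.9 and 105.1 CPM to 32.8, 26.5 and 27.5 CPM (log2 -1.88, SE 0.07, adjusted p = 4.89e-11).

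Mesenchymal genes showed no common direction, 14 up and 11 down of 32. Fibronectin (FN1) went from 1212, 1227 and 1231 CPM to 641.7, 500.4 and 476.7 CPM (log2 -1.18). Fibrillar collagen genes went the other way and differed between libraries. COL1A1 went from 15.0, 14.1 and 15.9 CPM to 31.7, 46.0 and 31.4 CPM (log2 1.28, adjusted p = 7.32e-07). COL1A2 had 11, 4 and 7 counts in control libraries and 43, 217 and 70 counts in shSORD libraries (log2 3.79, SE 0.61, and 2.87 without shSORD 2). COL3A1 had 4, 5 and 5 counts against 25, 111 and 56. In these collagens, and in ACTA2 and TAGLN, shSORD 2 was the highest library. The 10 fibroblast markers summed to 16.2 to 17.9 CPM in control and 35.6 to 57.6 CPM in shSORD libraries, most of it COL1A1. Of the 7 that passed the filter 6 rose: these 3 collagens, LUM (log2 4.50, at most 22 counts), POSTN (3.06, at most 25 counts) and PDGFRB (1.98, at most 46 counts). THY1 was not called, and DCN, FAP and PDGFRA did not pass, with at most 4, 2 and 11 counts in any library. COL1A2, COL3A1, LUM, POSTN and PDGFRB had at most 11 counts in any control library and passed the filter through their shSORD counts. The share of tested fibroblast markers that rose is therefore partly set by the filter. The 6 smooth muscle markers summed to 31.4 to 35.5 and 53.7 to 69.2 CPM, a difference that lay mostly in ACTA2 and TAGLN. SMTN, the most abundant of them, averaged 21.7 CPM in control and 22.95 CPM in shSORD libraries and was not called (adjusted p = 0.415). DES rose (log2 2.49, at most 39 counts), and MYH11 and CNN1 did not pass the filter. The part of other cell types in these rises was not tested.

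Some genes set shSORD apart from both other groups. Protein-coding genes were taken that were called in both comparisons in 1 direction and had no overlap of libraries. They also averaged at least 20 CPM in 1 or more groups, which TAGLN and PPP1R13L did only in shSORD. Genes were ranked by the smaller of the 2 changes, and only the first 8 in each direction were kept. This rule was set after the data were seen. Changes and adjusted p-values quoted for these genes were part of the choice and are not separate evidence. The comparisons share the shSORD libraries. SORD itself came first of the lower genes. TGOLN2, a protein that cycles through the trans-Golgi network, read 485.4, 496.6 and 505.3 CPM in control, 494.9, 491.5 and 486.4 CPM in shAKR1B1 and 154.5, 137.2 and 154.5 CPM in shSORD libraries. Its log2 difference was -1.74 from control (adjusted p = 8.55e-12) and -1.72 from shAKR1B1 (adjusted p = 1.49e-11). SLC25A11, the mitochondrial oxoglutarate and malate carrier, read 112.3, 101.4 and 102.0 CPM in control and 31.7, 34.8 and 29.4 CPM in shSORD libraries, with a mean of 84.9 CPM in shAKR1B1. EIF1AX, a translation start factor, averaged 78.5 CPM in control, 69.8 CPM in shAKR1B1 and 25.9 CPM in shSORD libraries. ACOX2, the peroxisomal oxidase of bile acid side chains, averaged 20, 13.7 and 5.03 CPM in the same order, and IQGAP2, a scaffold protein, 36.2, 37.4 and 14.7 CPM. MUC5B and CTSC, described above, belong here too, since their shAKR1B1 means of 419.7 and 94.5 CPM lay far above the shSORD libraries.

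Of the higher genes in this ranking, NPTX1, a neuronal pentraxin, averaged 34.6 CPM in control, 7.74 CPM in shAKR1B1 and 81.6 CPM in shSORD libraries. IGFBP7, a secreted IGF-binding matrix protein, averaged 20.6, 9.60 and 45.5 CPM in that order, and COL1A1 15.0, 8.92 and 36.4 CPM. On average these genes lay below the control with 1 hairpin label and above it with the other. SLC2A3 was almost the same in control and shAKR1B1 libraries (68.9 and 68.3 CPM) and stood at 149.8 CPM in shSORD. PGM2L1, which makes glucose 1,6-bisphosphate, averaged 15.8, 13.8 and 34.0 CPM. PPP1R13L, an inhibitor of p53 (iASPP), averaged 7.77, 9.31 and 21.0 CPM, and TAGLN, an actin-binding protein of contractile cells, 5.44, 7.69 and 20.4 CPM. Other genes differed between the knockdowns by degree: FGB averaged 346.3 CPM in shAKR1B1 against 235.7 CPM in shSORD libraries (log2 -0.55, adjusted p = 1.92e-04), and HNF4A, at 94.1 and 86.5 CPM, was not called between them (log2 -0.12, adjusted p = 0.112). Of 21 intestinal genes 15 were lower and 2 higher in shSORD than in shAKR1B1 libraries. For 17 liver-secreted proteins these counts were 11 and 3, and for 21 endodermal factors 10 and 3. Coagulation genes were split, 8 lower and 7 higher of 22, and complement genes leaned the other way, 3 lower and 7 higher of 15. Over all genes tested the shares were 15.5% lower and 15.1% higher.

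**Figure D3:**
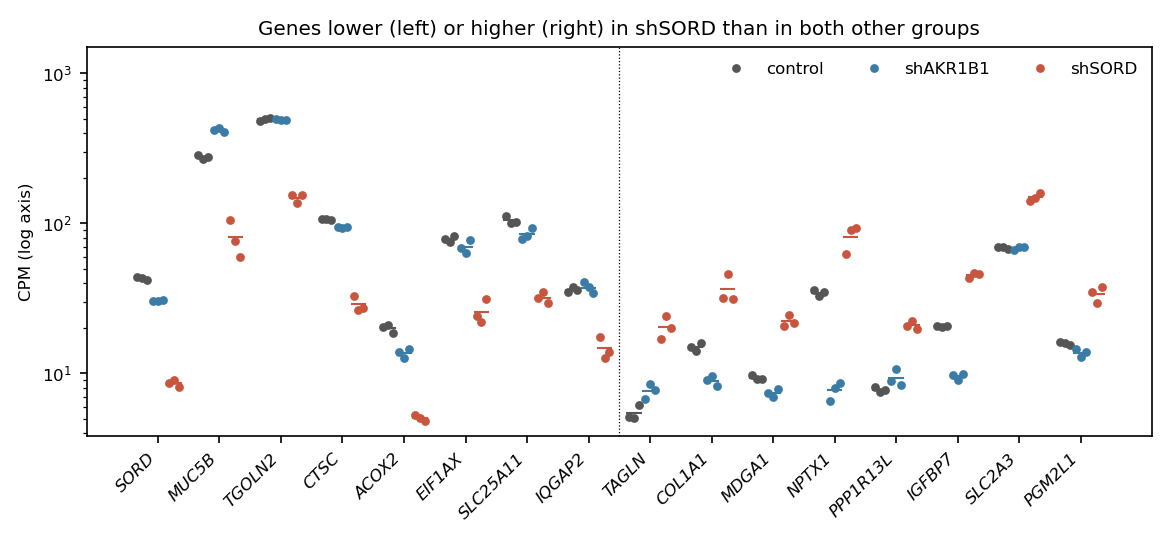
CPM (log axis) in each control (grey), shAKR1B1 (blue) and shSORD (red) library, with group means as bars. Shown are the first 8 of the ranked genes lower (left) and the first 8 higher (right) in shSORD than in both other groups. TGOLN2 averages 495.7 and 490.9 CPM in control and shAKR1B1 and 148.7 CPM in shSORD; SLC2A3 averages 68.9, 68.3 and 149.8 CPM.

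The shSORD libraries varied more among themselves than the others. The common biological coefficient of variation within a group was 3.02% in control, 4.48% in shAKR1B1 and 10.1% in shSORD libraries, and 12.8% between shSORD 2 and shSORD 3 alone. The SD of log2 CPM over 3 libraries was larger in shSORD than in control for 74.0% of genes. Of 9645 genes with a mean of at least 10 CPM, the highest and lowest library lay 1.5-fold or more apart for 1 gene in control, 9 in shAKR1B1 and 204 in shSORD. Of those 204, shSORD 3 was highest for 163 and shSORD 2 lowest for 173. NDUFC2, a complex I subunit, read 9.53, 5.68 and 14.7 CPM in the shSORD libraries, and the Polycomb gene BMI1 9.01, 6.78 and 15.0 CPM. GOLT1B, a vesicle transport gene, read 43.3, 28.5 and 58.0 CPM, in the same order of libraries. TMSB4XP8, a pseudogene of thymosin beta 4 whose reads may belong to its parent, instead read 53.6, 53.5 and 9.51 CPM. Among those 204 genes the spread therefore follows mostly 1 pattern, shSORD 2 against shSORD 3, with shSORD 1 between them. Genes that rose by at least 2-fold had another order. Their median log2 change was 1.49, 1.39 and 1.29 in shSORD 1, 2 and 3.

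The pattern of shSORD 2 against shSORD 3 moved with base composition. Across 9555 genes of at least 10 CPM with a known transcript, the log2 difference of shSORD 2 minus shSORD 3 had a Spearman correlation of 0.873 with the GC content of the longest transcript. The genes share the same libraries, so this is a description and not a test. The other shSORD pairs had correlations of -0.667 (1 minus 2) and 0.64 (1 minus 3), against 0.389, 0.368 and -0.0881 for control pairs. The shAKR1B1 pairs had -0.545 (1 minus 2), -0.216 (1 minus 3) and 0.228 (2 minus 3). A trend with GC between libraries was thus not confined to shSORD. Genes with the wide range had a median GC content of 38%, against 48% for the rest. The wide-range genes were called against control in 44.8% of cases and the rest in 63.3%. The group difference itself was nearly unrelated to GC content. The log2 fold change of shSORD against control had a Spearman correlation of -0.0231 with GC over the same genes. Its correlations with transcript length and expression level were 0.185 and -0.0758. Over all tested genes with a known transcript the correlation with level was -0.229. When the trend with GC was removed within each group, an alternative chosen after seeing the data, the number of wide-range genes in shSORD went from 200 to 29 and the median SD of log2 CPM from 0.147 to 0.0997. The control median SD went from 0.0702 to 0.065 in the same step, so the shSORD libraries remained the more variable group. With that trend removed 4993 genes were called higher and 5503 lower, against 4655 and 4910.

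**Figure D4:**
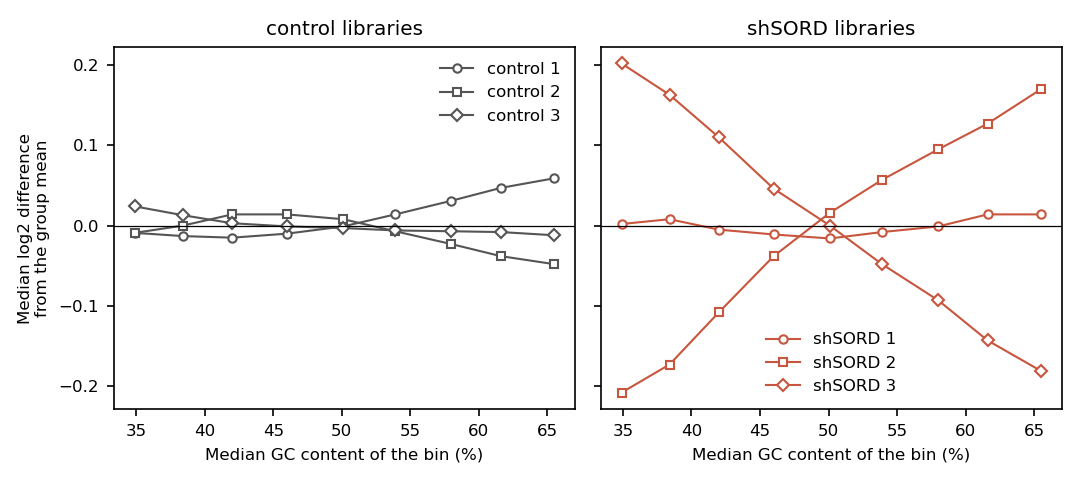
Median log2 difference of genes from their group mean, by bins of GC content (horizontal axis, %), in each control library (left) and each shSORD library (right). In the bin of lowest GC shSORD 2 lies at -0.208 and shSORD 3 at 0.202, in the highest at 0.17 and -0.181. All control values lie between -0.048 and 0.059. The shAKR1B1 libraries are not drawn, and their values lie between -0.067 and 0.048.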

How the data were processed

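Per the submitters' processing notes, the tools were cutadapt 1.9.1, STAR 2.5.2b, featureCounts 1.5.1 (Subread) and DESeq2 1.12.3 on GRCh37, with no roles stated. The authors deposited raw counts per Ensembl gene (57905 IDs), whole numbers without normalization; for the strand setting and for multi-mapping reads the sources used here say nothing, so overlapping antisense genes and near copies are uncertain. Symbols matched 51996 IDs. Gene types, lengths and GC content came from GENCODE 29, on another build, so no count is tied to a coordinate.

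The counts were fitted with edgeR 4.0.16 (R 4.3.3): default expression filter, TMM scaling, a quasi-likelihood fit of group means to all 9 libraries, prior count 0.125, Benjamini-Hochberg adjustment over 16916 genes. The scripts were tested on simulated data. CPM used TMM-scaled library sizes; the common biological coefficient of variation was 6.59% and replicate files differed beyond sampling noise. Named genes were SORD, AKR1B1, AKR1B10 and SORD2P; the 10 largest rises and falls with at least 100 CPM; ranks 11 to 25 of protein-coding changes with at least 50 counts; in each of 36 lists the first 3 members and up to 4 rises and 4 falls; and the 10 widest ranges. LDHA, the marker genes, genes with a promoter match (such as WNT3), FGA, F13B and the genes set apart from both groups were added after their values were seen. Members and lists were chosen with earlier results of these data known. Unmatched entries included TXNIP, HSPB11, LPHN2, DDX58 and the marker PECAM1. Some named genes are not reported here. Nothing in the labels pairs same-numbered libraries.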

Additional observations from a re-analysis of the deposited data

How the results depend on the processing

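Called genes numbered 4655 higher and 4910 lower. Over the 15 alternatives (DESeq2, other size factors, no or a stricter filter, 6 libraries alone, variance by group, GC trends, left-out libraries, replicate block) both counts stayed within 1.5 times of these. DESeq2 1.42.0 gave 4459 and 4632, the 6 libraries alone 4453 and 4310, and leaving out 1 library 4108 to 5041 and 4139 to 5086. With the stricter filter (at least 1 CPM in 3 libraries and a mean of 50 counts), which tests fewer genes, calls of at least 2-fold went from 1357 to 719 higher and from 524 to 273 lower. Median SDs of log2 CPM were 0.0716 in control and 0.148 in shSORD, and 0.0447 and 0.116 for genes of at least 10 CPM. With the GC trend removed in every library, chosen after seeing the data, calls became 6078 higher and 4392 lower. ABCC1 turned to a log2 fold change of 0.10, and the cause was not tested. This setting also shifts the level of each library, since the trend was fitted with its level to genes above 10 CPM. The median log2 fold change over all genes went from -0.002 to 0.076 with it. Its counts and list medians are therefore not those of a GC slope alone. Of 964 single genes, 746 kept call and direction in every setting run, 217 changed call and 1 reversed. NRF2 targets called higher went from 5 to 10 with that GC setting and 9 with the stricter filter, TCA genes higher from 4 to 9 with that GC setting, and interferon genes lower from 7 to 4 with the stricter filter. List medians kept their sign, except in at least 1 setting for the axon guidance, growth factor, heat shock, hypoxia, interferon, pentose phosphate, potassium channel and sphingolipid lists. Of the medians printed above, these moved by over 1.5 times: Wnt (-0.08), fatty acid (-0.10), respiratory chain (-0.13) and polyol genes (-0.15) with that GC setting; polyol (-0.14), endodermal factor (0.56), intestinal (2.35) and CEACAM and mucin genes (2.04) with the stricter filter; CEACAM and mucin genes without a filter (0.77); Wnt genes without shSORD 3 (-0.11) and osmotic stress genes without shSORD 2 (-0.15). So did the median of alveolar and airway genes, which was lowest without a filter (0.07). Same-numbered libraries did not deviate together (correlations 0.0314, -0.0253 and 0.0311). A replicate block gave 4741 higher and 5076 lower.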
